A study of Chlorocebus sabaeus with 18 samples.

Results

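ITGB3, TGM2, TM4SF1, PSG5, TMEM154, MAOA and SAT1 are 7 genes of COS-7 cells that were selected on their measured signal, which was lower on arrays of cells overexpressing the splicing factor TRA2A. They are 7 of 135750 transcript clusters (gene-level probe sets) of a human array, and all 7 passed the filter on low values that 67854 clusters passed. Each symbol had 1 cluster. Because the overexpressing arrays chose the genes, every comparison with those arrays is given below as a description with no test. Tests were kept for comparisons among the other groups. The label under which the genes were gathered, lower in TRA2A-overexpressing arrays, held for all 7 relative to CGG cells and to TRA2A knockdown cells. Relative to control cells it held for 5, and TMEM154 and SAT1 averaged higher with TRA2A than in controls.

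COS-7 is an established green monkey kidney line, and 18 Clariom D Human arrays of its total RNA (100 ng each) formed 6 groups of 3. The groups were cells carrying the CGG expansion together with TRA2A overexpression, TRA2A overexpression alone (the titles name GFP only here), the CGG expansion with TRA2A knockdown, TRA2A knockdown alone (titled siTRA), the CGG expansion alone, and controls. The expansion is 60 CGG repeats in the 5' UTR of FMR1, the RNA of fragile X-associated tremor/ataxia syndrome (FXTAS), and the series title concerns recruitment of TRA2A to that RNA. The condition labels of the 3 control arrays read COS-7, COS-6 and COS-5, and name no empty vector and no control siRNA. Array 1 of the CGG group is titled as rehybridised, as is array 3 of the TRA2A knockdown group. No label ties the 3 arrays of a group to independent cultures, so the p-values cover the spread between these arrays only, which may be technical.

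TRA2A is a protein with arginine- and serine-rich domains that binds purine-rich exon sequences and promotes exon inclusion. ITGB3 encodes the integrin beta 3 chain, which pairs with the alpha V chain (ITGAV) on many adherent cells and with the alpha IIb chain on platelets, and binds matrix proteins such as vitronectin, fibronectin and osteopontin. TGM2 encodes transglutaminase 2, a calcium-dependent protein cross-linking enzyme that also sits at the cell surface with integrins and fibronectin. SAT1 encodes spermidine/spermine N1-acetyltransferase, the rate-limiting enzyme of polyamine breakdown, and MAOA encodes monoamine oxidase A, the mitochondrial enzyme that degrades serotonin and noradrenaline. All values below are log2 signals, so a difference of 1 is a factor of 2, and the signal of one gene's probes was not set against that of another's.

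TRA2A itself followed the labels. It averaged 17.16 ± 0.06 in CGG cells with TRA2A overexpression, 18.53 ± 0.16 with overexpression alone, 11.82 ± 0.17 in CGG cells with knockdown and 11.55 ± 0.44 with knockdown alone, against 14.57 ± 0.12 in CGG cells and 14.62 ± 0.07 in controls (SD, n = 3 each). Array medians lay between 4.14 and 4.2. The control arrays stood apart on the first principal component (12.7% of variance), where the other 15 arrays lay at -10.7 to 36.2 and the controls at -79.5 to -30.7. Every difference from control below therefore rests on 3 arrays that differ from all others over many genes. Of 10 kidney and epithelial markers, 9 passed the filter. Keratin 8 (KRT8) averaged 13.99 over all arrays and EPCAM 12.46. Of the kidney markers, PAX8 averaged 10.32, whereas CDH16 and LRP2 averaged 4.88 and 4.32, near the filter, and PAX2 averaged 3.60, below it. All 9 measured fibroblast markers passed as well, from vimentin (VIM) at 15.86 down to DCN at 4.86 and THY1 at 4.48, near the filter. The 9 endothelial markers averaged 4.40 to 5.13 per array and the 7 platelet markers 4.65 to 5.15, near the filter of 4.14. Of these, 8 endothelial and 6 platelet markers passed it. In RNA of whole cultures, fewer cells expressing a gene and less of its RNA per cell cannot be told apart.

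ITGB3 and TGM2 were low in both groups with TRA2A overexpression and higher in all 4 other groups. ITGB3 read 7.84, 7.37 and 8.35 in CGG cells with TRA2A overexpression, against 9.27, 9.14 and 9.16 in CGG cells. It read 7.53, 7.52 and 7.57 with TRA2A overexpression alone, against 9.66, 9.19 and 9.94 in controls. The groups did not overlap in either background, and the 3 arrays with overexpression alone were nearly equal while those in CGG cells spread widely. The difference of means was -1.34 ± 0.23 in CGG cells and -2.06 ± 0.23 (fitted SE) without CGG, a 2.53-fold and a 4.16-fold lower signal.

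TGM2 read 10.49, 10.4 and 10.77 in CGG cells with TRA2A overexpression, against 12.2, 11.73 and 12.01 in CGG cells. With TRA2A overexpression alone it read 10.46, 10.59 and 10.8, against 12.58, 11.93 and 12.63 in controls. All 6 overexpressing arrays were below all 12 others. TGM2 was lower by 1.43 ± 0.20 in CGG cells (2.69-fold) and by 1.76 ± 0.20 without CGG (3.39-fold).

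Knockdown of TRA2A gave no call for these genes. ITGB3 read 9.5, 9.39 and 9.29 in CGG cells with knockdown and 9.37, 8.98 and 9.68 with knockdown alone. TGM2 read 11.82, 11.7 and 11.92 in CGG cells with knockdown and 11.72, 11.86 and 11.77 with knockdown alone. Against controls, knockdown alone gave -0.25 ± 0.23 for ITGB3 (adjusted p = 0.717, limma with Benjamini-Hochberg adjustment over all tested clusters) and -0.60 ± 0.20 for TGM2 (adjusted p = 0.154). The TGM2 knockdown arrays were all below the control arrays, and its difference passed the threshold at -0.82 (adjusted p = 0.0367) when control array 2 was left out.

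TM4SF1 and PSG5 were highest in controls, lower in each of the 5 treated groups and lowest with TRA2A overexpression. TM4SF1 encodes a membrane protein of the L6 family, which resembles tetraspanins and is abundant on many tumour and endothelial cells. It read 12.98, 13.06 and 12.93 in CGG cells with overexpression, against 13.38, 13.27 and 13.51 in CGG cells, a difference of -0.40 ± 0.16. It read 12.87, 13.15 and 13.02 with overexpression alone, against 14.56, 14.93 and 14.94 in controls, a difference of -1.80 ± 0.16. The overexpressing arrays were below their comparison arrays in both backgrounds, and the step was smaller in CGG cells, whose own level was already below control. TRA2A itself was also lower in CGG cells with overexpression (17.16) than with overexpression alone (18.53). The part of either in the size of the step was not tested.

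PSG5 encodes a pregnancy-specific glycoprotein, a secreted immunoglobulin-like protein made in quantity by placental syncytiotrophoblast. It read 7.36, 6.94 and 7.64 in CGG cells with TRA2A overexpression, against 8.19, 7.81 and 8.1 in CGG cells. It read 6.95, 7.03 and 7.12 with overexpression alone, against 8.93, 9.26 and 9.05 in controls. The groups did not overlap, and the differences were -0.72 ± 0.20 in CGG cells and -2.05 ± 0.20 without CGG. The 10 trophoblast markers averaged 5.78 to 6.07 per array in CGG cells with overexpression and 5.83 to 5.98 with overexpression alone, against 5.67 to 5.96 in CGG cells and 5.56 to 5.76 in controls. Their part in the PSG5 values was not tested.

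TMEM154, MAOA and SAT1 were high in CGG cells and in both knockdown groups, and were near the control level with TRA2A overexpression. TMEM154 encodes a single-pass membrane protein whose variants in sheep are linked to lentivirus susceptibility. It read 8.28, 7.75 and 8.02 in CGG cells with overexpression, against 9.69, 9.47 and 9.7 in CGG cells. It read 8.23, 7.81 and 8.56 with overexpression alone, against 7.95, 7.43 and 8.02 in controls. The CGG background showed no overlap and a difference of -1.60 ± 0.21, whereas without CGG the arrays overlapped at +0.40 ± 0.21.

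MAOA read 7.68, 7.79 and 7.88 in CGG cells with TRA2A overexpression, against 9.06, 8.73 and 9.49 in CGG cells. It read 7.82, 7.73 and 7.77 with overexpression alone, against 7.88, 8.11 and 8.71 in controls. All 6 overexpressing arrays lay between 7.68 and 7.88, below every other array except that the lowest control reading, 7.88, equalled their highest. The difference was -1.31 ± 0.21 in CGG cells and -0.46 ± 0.21 without CGG, and the second was -0.22 without control array 3.

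SAT1 read 11.8, 11.82 and 11.65 in CGG cells with TRA2A overexpression, against 12.89, 12.77 and 13.29 in CGG cells. It read 11.65, 11.95 and 11.78 with overexpression alone, against 11.07, 11.49 and 11.75 in controls. As for TMEM154, the groups were apart in CGG cells, at -1.23 ± 0.19, and overlapped without CGG, at +0.36 ± 0.19.

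**Figure D1:**
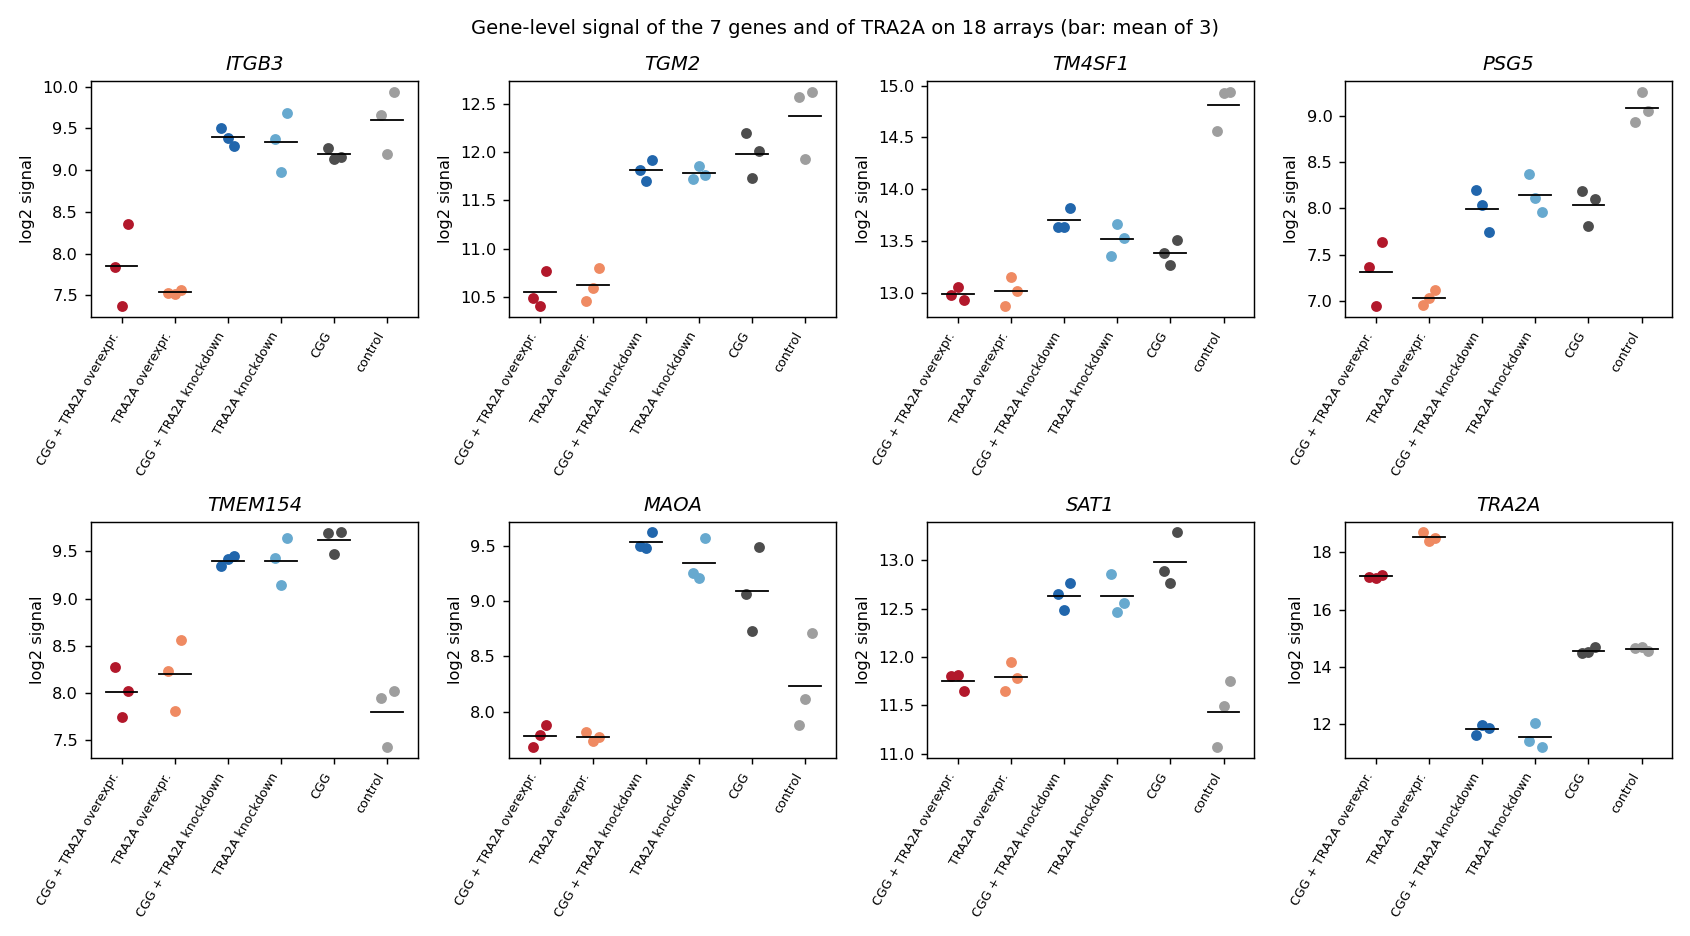
Gene-level log2 signal (vertical axes) of the 7 genes and of TRA2A on each of 18 arrays, by group (horizontal axes), with a bar at the mean of 3 arrays. ITGB3 and TGM2 are low in both overexpression groups, TM4SF1 and PSG5 are highest in controls, and TMEM154, MAOA and SAT1 are high in the CGG and knockdown groups; TRA2A averages 18.53 with overexpression alone and 11.55 with knockdown alone.

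Counted over the 7 genes, all arrays with CGG and overexpression were below all CGG arrays for 7 of 7, as for 5.12% of all tested clusters. Without CGG, all overexpressing arrays were below all controls for 5 of 7, against 7.74% of tested clusters. Set against knockdown, the signal was lower with no overlap for 7 of 7 in CGG cells (6.51% of tested clusters) and for 7 of 7 without CGG (7.2%). These counts repeat the choice of the genes and are no evidence about them. The median difference of the 7 was -1.31 in CGG cells and -1.76 without CGG, beside medians of 0.04 and 0.01 over all tested clusters.

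The levels with overexpression were close to each other whether or not the expansion was present. CGG cells with overexpression minus overexpression alone ran from -0.18 ± 0.21 for TMEM154 to +0.31 ± 0.23 for ITGB3. The median of the 7 was -0.02, beside 0.01 over all tested clusters. The 2 groups did not have the same TRA2A level, which averaged 17.16 with CGG and 18.53 without. In CGG cells, overexpression minus knockdown ran from -1.75 for MAOA to -0.68 for PSG5. Without CGG the same difference ran from -1.80 for ITGB3 to -0.50 for TM4SF1.

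Ordered by level, ITGB3 was lowest with overexpression alone, then in CGG cells with overexpression, then in CGG cells, knockdown, CGG cells with knockdown and controls. Only the step of 1.34 from CGG cells with overexpression up to CGG cells lay outside the spread of neighbouring arrays. For TGM2 that step was 1.17, between overexpression alone and knockdown. TM4SF1 and PSG5 each had 2 such steps, above the overexpression groups (0.37 and 0.68) and below the controls (1.11 and 0.93). TMEM154 and SAT1 had 1 such step, above a low cluster of controls and both overexpression groups (1.20 and 0.84). MAOA had 1 such step as well, of 0.86, between controls and CGG cells.

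Among the comparisons with no overexpressing array, knockdown alone against control called 5 of the 7 genes. TMEM154, MAOA and SAT1 rose (3 of 7, against 1.13% of tested clusters), and TM4SF1 and PSG5 fell (2 of 7, against 0.42%). The control arrays may have served as comparator when the genes were chosen, so these calls cannot be taken as independent of the choice. The 7 genes had a median difference of -0.25, beside 0.01 over all tested clusters.

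TMEM154 read 9.43, 9.14 and 9.64 with knockdown alone, against 7.95, 7.43 and 8.02 in controls, and rose 3.04-fold (+1.60 ± 0.21, adjusted p = 0.000383). SAT1 read 12.86, 12.47 and 12.56, against 11.07, 11.49 and 11.75 in controls, and rose 2.29-fold (+1.19 ± 0.19, adjusted p = 0.00246). MAOA read 9.25, 9.21 and 9.57, against 7.88, 8.11 and 8.71 in controls, and rose 2.16-fold (+1.11 ± 0.21, adjusted p = 0.00895). All knockdown arrays lay above all control arrays for these 3 genes. The MAOA call was lost without control array 1 (adjusted p = 0.0633) and without knockdown array 3 (0.0556), the rehybridised one.

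TM4SF1 read 13.36, 13.66 and 13.53 with knockdown alone, against 14.56, 14.93 and 14.94 in controls, and fell 2.45-fold (-1.29 ± 0.16, adjusted p = 0.000181). PSG5 read 8.37, 8.11 and 7.96, against 8.93, 9.26 and 9.05 in controls, and fell 1.91-fold (-0.93 ± 0.20, adjusted p = 0.0178). The PSG5 call was lost without control array 2 (adjusted p = 0.0691), knockdown array 2 (0.0558) or knockdown array 3 (0.0871).

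CGG cells against controls called 4 of the 7 genes. TMEM154 and SAT1 rose (2 of 7, against 0.504% of tested clusters), and TM4SF1 and PSG5 fell (2 of 7, against 0.165%). The comparison uses the same controls as the knockdown comparison, and the CGG arrays may likewise have served in the choice of genes. The median of the 7 was -0.40, beside -0.01 over all tested clusters.

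TMEM154 was 3.53-fold higher in CGG cells (+1.82 ± 0.21, adjusted p = 0.000151) and SAT1 2.92-fold higher (+1.55 ± 0.19, adjusted p = 0.000306). TM4SF1 was 2.68-fold lower (-1.42 ± 0.16, adjusted p = 9.19e-05) and PSG5 2.07-fold lower (-1.05 ± 0.20, adjusted p = 0.0137). MAOA missed the threshold at +0.86 ± 0.21 (adjusted p = 0.0704), although its CGG arrays were all above its control arrays. It passed without control array 3 (+1.10, adjusted p = 0.0136) and without CGG array 2 (+1.04, adjusted p = 0.048). The PSG5 call was lost without control array 2 (adjusted p = 0.0542), CGG array 2 (0.0752) or CGG array 3 (0.053). ITGB3 differed by -0.41 ± 0.23 (adjusted p = 0.498) and TGM2 by -0.40 ± 0.20 (adjusted p = 0.406).

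In CGG cells, knockdown of TRA2A gave no call. Over the 7 genes the difference from CGG cells ran from -0.35 ± 0.19 for SAT1 to +0.44 ± 0.21 for MAOA, with 0 of 7 called by limma and 0 of 7 at an unadjusted p under 0.05 (0.147% of tested clusters were called). TMEM154 read 9.34, 9.42 and 9.45 in CGG cells with knockdown, PSG5 8.2, 8.04 and 7.74, MAOA 9.5, 9.48 and 9.62, and SAT1 12.65, 12.49 and 12.77. TM4SF1 read 13.64, 13.64 and 13.82 in CGG cells with knockdown, all above the 3 CGG arrays by a difference of +0.31 ± 0.16 (adjusted p = 0.727).

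CGG cells with knockdown against knockdown alone use no overexpressing, CGG-only or control array, but the rule names no comparator, so use of the knockdown arrays in the choice of genes cannot be told. The difference ran from -0.15 ± 0.20 for PSG5 to +0.19 ± 0.21 for MAOA, and TMEM154 had equal means of 9.40. Limma called 0 of 7, with 0 of 7 at an unadjusted p under 0.05, and it called 0% of all tested clusters, 3209 of which had an unadjusted p under 0.05.

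By limma's interaction test, the knockdown difference in CGG cells departed from that without CGG for 3 genes. CGG cells, knockdown alone and CGG cells with knockdown averaged 13.39, 13.52 and 13.70 for TM4SF1, against 14.81 in controls. For TMEM154 they averaged 9.62, 9.40 and 9.40, against 7.80, and for SAT1 12.98, 12.63 and 12.64, against 11.44. The interaction values thus rest on the distance of these groups from controls, whose arrays stood apart from all others. For TM4SF1 the knockdown difference in CGG cells minus that without CGG was +1.61 ± 0.23 (adjusted p = 0.00361), 1 of 7 genes against 0.0457% of tested clusters called in that direction. It was -1.82 ± 0.30 for TMEM154 (adjusted p = 0.0138) and -1.54 ± 0.27 for SAT1 (adjusted p = 0.0232), 2 of 7 against 0.13%. The TMEM154 call was lost with rehybridisation as a covariate (adjusted p = 0.0717). The SAT1 call was lost with that covariate (0.0622) and without control array 1 (0.0729), CGG array 3 (0.0788), knockdown array 1 (0.086), or array 1 (0.0648) or 2 (0.0806) of CGG cells with knockdown. The interaction was +0.89 ± 0.28 for PSG5 (adjusted p = 0.238), -0.67 ± 0.30 for MAOA (0.436), +0.46 ± 0.33 for ITGB3 (0.672) and +0.43 ± 0.28 for TGM2 (0.622).

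**Figure D2:**
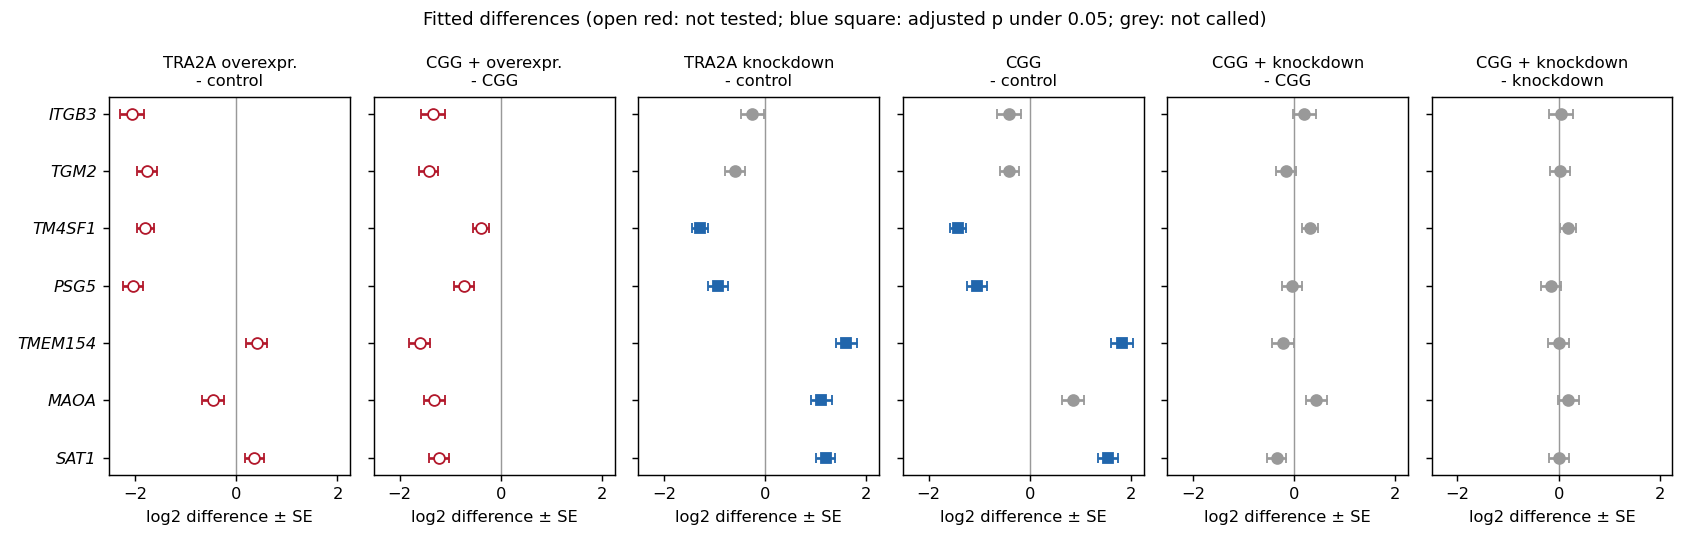
Fitted log2 differences with SE (horizontal axes) of the 7 genes (rows) in 6 comparisons (panels). Open red circles are comparisons with overexpressing arrays, which were not tested; blue squares passed an adjusted p of 0.05 and grey circles did not. The 2 panels of CGG cells with knockdown hold no call and lie between -0.35 and +0.44.

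The exon-level table held 181 exon regions and junctions (features) of the 7 genes, of which 119 had a mean above the exon-level filter of 7.46 and were tested. With overexpression alone, 35 of 35 ITGB3 features, 21 of 21 TM4SF1 features, 20 of 21 PSG5 features, 29 of 30 MAOA features and 28 of 31 TGM2 features were below control. In CGG cells the counts below CGG cells were 34, 17, 15, 30 and 29 of the same totals. TMEM154 was below control in 6 of 13 features and SAT1 in 7 of 30. In CGG cells TMEM154 with overexpression was lower in 10 of 13 and SAT1 in 18 of 30. These features share arrays and transcripts and are not replicates.

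**Figure D3:**
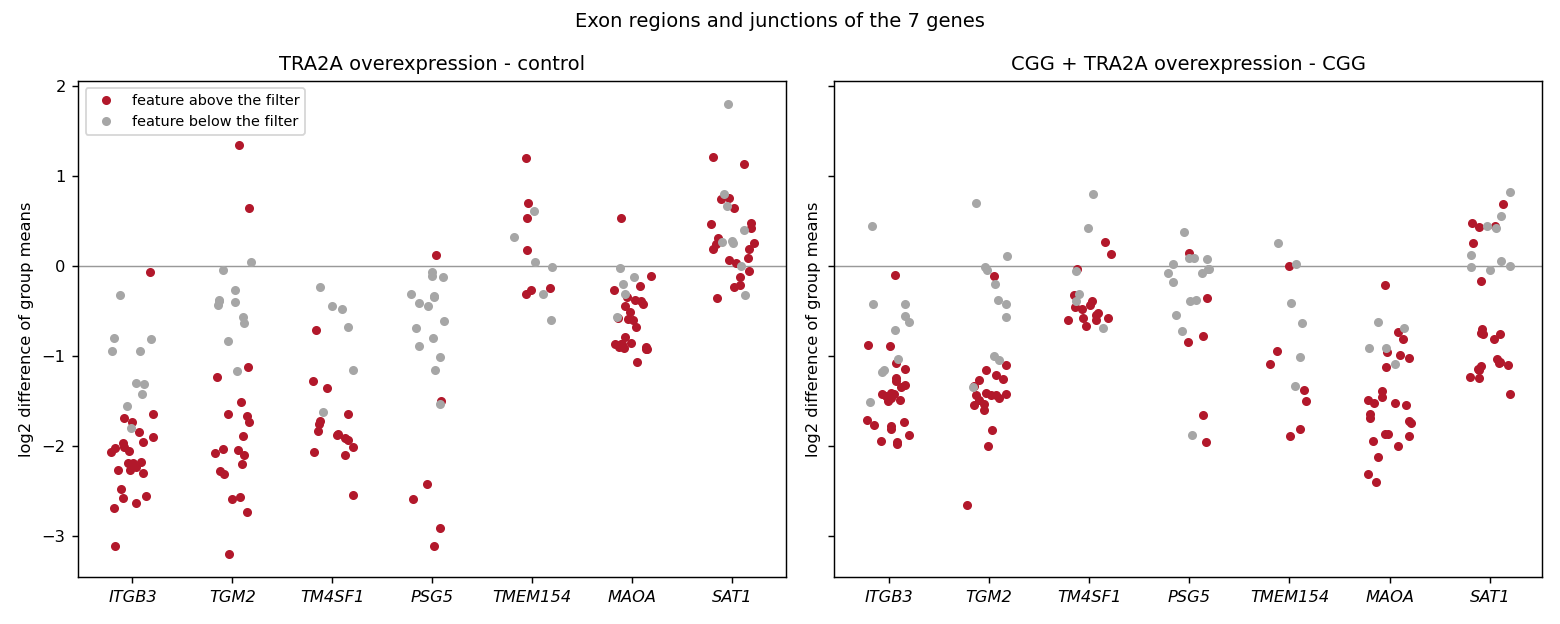
Difference of group means in log2 units (vertical axis) for each exon region or junction of the 7 genes (horizontal axis), with TRA2A overexpression minus control on the left and CGG with TRA2A overexpression minus CGG on the right. Red points are the 119 features above the exon-level filter and grey points those below it; ITGB3 has 35 of 35 points below 0 on the left, and SAT1 is spread on both sides of 0 on the right.

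Single features were picked as the lowest and highest relative to the gene value. They mark the range along each transcript and not how even the difference was. The ITGB3 junction JUC1700073460.hg.1 averaged 10.28 ± 0.33 with overexpression alone, against 13.39 ± 0.40 in controls (SD, n = 3 each). The ITGB3 region PSR1700202747.hg.1 averaged 7.63 ± 0.17, against 7.70 ± 0.08. These were the lowest and the highest feature relative to the gene. The PSG5 junction JUC1900067053.hg.1 averaged 8.66 ± 0.29 in CGG cells with overexpression and 8.88 ± 0.57 with overexpression alone, against 10.62 ± 0.37 in CGG cells and 11.99 ± 0.28 in controls. For the neighbouring PSG5 junction by identifier, JUC1900067052.hg.1, the means were 8.20 ± 0.10 with overexpression alone and 8.08 ± 0.62 in controls. PSG5 had 15 of 21 features below the filter, and its mean over all features was -1.01 without CGG, beside -2.05 at gene level.

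The remaining extremes with overexpression alone were as follows. TM4SF1 junction JUC0300072153.hg.1 averaged 8.80 ± 0.13, against 11.34 ± 0.26 in controls, and region PSR0300195482.hg.1 8.34 ± 0.31, against 9.05 ± 0.23. MAOA junction JUC0X00049124.hg.1 averaged 8.29 ± 0.64, against 9.35 ± 0.26 in controls, and junction JUC0X00049131.hg.1 8.67 ± 0.61, against 8.13 ± 1.79. TMEM154 junctions JUC0400067073.hg.1 and JUC0400067072.hg.1 averaged 7.60 ± 1.06 and 8.26 ± 0.52, against 7.91 ± 0.63 and 7.06 ± 0.76 in controls. The arrays did not overlap between the groups for JUC0X00049124.hg.1 and JUC0400067072.hg.1, and they overlapped for JUC0X00049131.hg.1 and JUC0400067073.hg.1. SAT1 region PSR0X00146550.hg.1 averaged 14.02 ± 0.36, against 14.38 ± 0.26 in controls, and region PSR0X00146553.hg.1 7.80 ± 0.27, against 6.59 ± 0.60.

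One TGM2 junction went its own way. JUC2000056598.hg.1 read higher on every array with the CGG expansion than on any array without it, in all 3 TRA2A settings. It lay between 10.96 and 11.8 in CGG cells with overexpression, between 12.62 and 13.12 in CGG cells with knockdown and between 11.79 and 14.66 in CGG cells. It lay between 7.58 and 9.47 with overexpression alone, between 7.61 and 9.66 with knockdown alone and between 5.58 and 8.12 in controls. The 9 arrays with CGG and the 9 without did not overlap. Within CGG cells the junction averaged 11.34 with overexpression, 12.92 with knockdown and 13.35 with neither, so it was lowest there with overexpression. Probe sequences were not examined, so whether this junction's probes can bind the introduced CGG sequence itself was not tested.

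Relative to the TGM2 gene value, that junction rose by 6.67 ± 0.70 in CGG cells against controls (adjusted p = 7.93e-05) and by 4.46 ± 0.70 in CGG cells with knockdown against knockdown alone (adjusted p = 0.0108). Only 9 of 230888 tested features, itself included, rose as much in the first comparison. The first call held in all 22 settings run. The second held in 17 of 22 and was lost without array 2 (adjusted p = 0.0934) or 3 (0.0894) of knockdown alone, or array 1 (0.0795) or 2 (0.0856) of CGG cells with knockdown. The next junction by identifier, JUC2000056599.hg.1, averaged 13.91 ± 0.53 in CGG cells, against 12.93 ± 0.37 in controls, and rose by 1.38 ± 0.29 relative to the gene (adjusted p = 0.0423, a call kept in 8 of 22 settings). Leaving out any of 12 single arrays ended it, with the highest adjusted p, 0.189, without control array 1. Among features below the filter, chosen after their values were seen, region PSR2000163504.hg.1 averaged 7.76 ± 0.22, 8.35 ± 0.07 and 7.65 ± 0.52 in the 3 groups with CGG (with overexpression, with knockdown and alone). It averaged 6.04 ± 0.41 with overexpression alone, 6.22 ± 0.58 with knockdown alone and 6.09 ± 0.19 in controls. Region PSR2000163508.hg.1 likewise averaged 5.69, 5.84 and 6.11 with CGG, against 4.57, 4.97 and 4.84 without.

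The TGM2 gene-level value did not follow that junction, since it was -0.40 in CGG cells against controls. The mean over all 31 TGM2 features was +0.04, and over the 30 without the junction it was -0.17. With overexpression the 30 features averaged -1.03 against CGG cells and -1.38 against controls, so the lower TGM2 signal did not rest on the junction.

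**Figure D4:**
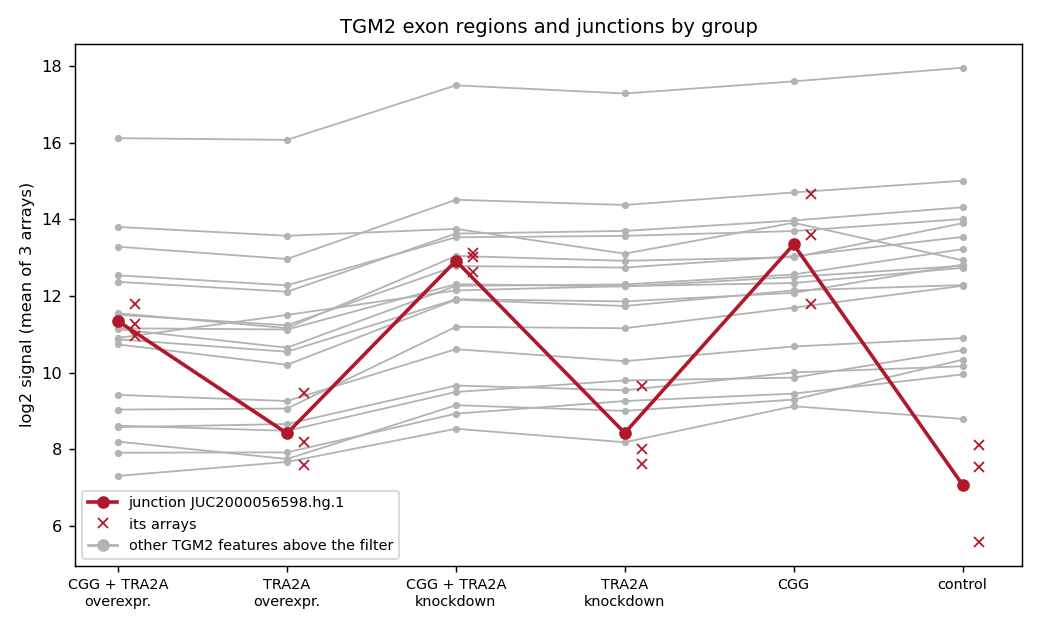
Mean log2 signal of 3 arrays (vertical axis) for the 20 TGM2 exon regions and junctions above the filter, by group (horizontal axis). Grey lines are 19 features that mostly run together; the red line, with crosses for its arrays, is junction JUC2000056598.hg.1, which is at 11.34, 12.92 and 13.35 in the groups with CGG and at 8.42, 8.43 and 7.08 in those without.

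SAT1 features differed among themselves in CGG cells. All 14 features with a mean of at least 10 were higher in CGG cells than in controls, by 0.90 to 2.18, and all 14 were lower with CGG and overexpression than with CGG alone, by a median of -1.09. The 16 dimmer features ran from -1.43 to +1.94 in CGG cells against controls, a range that overlaps that of the bright ones, with a median of +0.09 and 7 of 16 lower. Of these 16, 4 were lower with CGG and overexpression than with CGG. With knockdown alone the mean was higher than in controls in all 14 bright features (0.65 to 1.85) and all 16 dim ones (0.16 to 2.32). The 3 knockdown arrays were unlike each other in the dim features. Set against the control mean, their median over the 16 was +1.37 on array 1, +1.58 on array 2 and +0.50 on the rehybridised array 3, with 14, 16 and 14 of 16 higher. Over the 14 bright features the medians were +1.15, +0.85 and +0.93, with 14 of 14 higher on each array. The CGG arrays also spread in the dim features, at -0.10, +0.09 and +0.41, with 6, 9 and 11 of 16 higher. The level of 10 was chosen after the values were seen, so the split has no test.

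A single dim SAT1 region passed the test. PSR0X00146540.hg.1 averaged 9.94 ± 0.31 in CGG cells with overexpression, 9.47 ± 0.33 with overexpression alone, 10.18 ± 0.65 in CGG cells with knockdown and 10.36 ± 0.34 with knockdown alone. It averaged 9.47 ± 0.28 in CGG cells and 9.68 ± 0.67 in controls, so that it stayed near control in CGG cells while the gene value rose. Relative to the gene it fell by 1.76 ± 0.37 in CGG cells against controls (adjusted p = 0.0391), a call kept in 11 of 22 settings. Leaving out any of 11 single arrays ended it, with the highest adjusted p, 0.18, without CGG array 3. The mean over its 30 features was +0.66 in CGG cells against controls, beside +1.55 at gene level, and -0.36 with CGG and overexpression against CGG, beside -1.23.

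**Figure D5:**
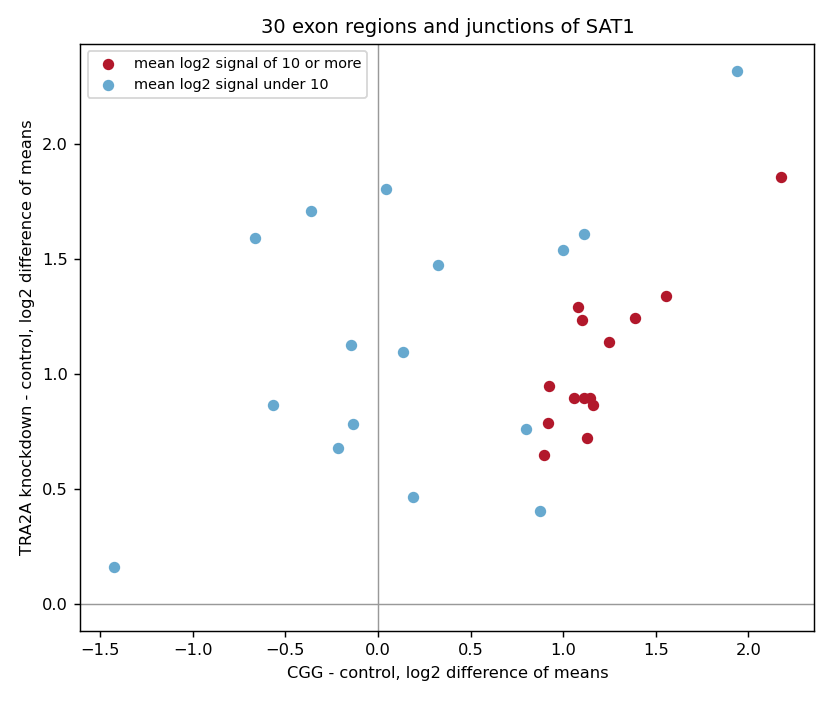
Each point is 1 of 30 SAT1 exon regions and junctions, with its log2 difference in CGG cells minus control on the horizontal axis and in TRA2A knockdown minus control on the vertical axis. The 14 red points (mean log2 signal of at least 10) lie between 0.90 and 2.18 horizontally, while 7 of the 16 blue points lie left of 0 although all are above 0 vertically.

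Of 119 tested features, 5 passed in CGG cells against controls and 1 in CGG cells with knockdown against knockdown alone. All features of the array passed at rates of 0.602% and 0.097%. TM4SF1 region PSR0300195484.hg.1 averaged 9.69 ± 0.17 in CGG cells, against 10.11 ± 0.23 in controls, and so rose by 1.003 ± 0.18 relative to its gene (adjusted p = 0.0163). That call was lost without control array 1 (adjusted p = 0.068), CGG array 1 (0.0571) or CGG array 2 (0.0527). TMEM154 region PSR0400183429.hg.1 averaged 7.30 ± 0.80 in CGG cells, against 7.52 ± 0.34 in controls, near the exon-level filter of 7.46. Its group means ran only from 7.25 with overexpression alone to 7.81 with knockdown alone. Relative to its gene the region fell by 2.04 ± 0.40 in CGG cells against controls (adjusted p = 0.0279). Most of that value is the gene-level rise of +1.82, which the region did not show. The TMEM154 call was kept in 17 of 22 settings, and the highest adjusted p over the settings was 0.367. It ended when CGG array 2 (0.11) or 3 (0.132) was left out, and when control array 1 (0.0703) or 2 (0.108) was. For knockdown alone against control, limma called 0 of 119 features (0.303% of all). For CGG cells with knockdown against CGG cells it called 0 of 119 (0.0078% of all).

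Some partners, ligands and relatives of the 7 genes passed the test with knockdown alone, for which 1.13% of all tested clusters were called higher and 0.42% lower. Among 14 tested integrin alpha chains, 1 rose and 1 fell with knockdown alone (list median 0.01, as over all tested clusters). ITGAV, the alpha V partner of ITGB3, fell by 1.12 ± 0.19 (adjusted p = 0.00313). Its arrays read 11.82, 12.45 and 12.25 with knockdown alone, against 13.3, 13.18 and 13.4 in controls. With TRA2A overexpression alone it read 12.65, 12.42 and 12.42. ITGA5, the alpha chain of the fibronectin receptor, rose by 1.15 ± 0.19 (adjusted p = 0.0028), and read 11.42, 11.78 and 11.46 with overexpression alone. Of 7 other integrin beta chains none passed in the 4 pairwise tests, and their median difference with knockdown alone was 0.07. ITGB1 averaged 16.61 with overexpression alone, against 16.60 in controls. ITGB8, another partner of the alpha V chain, read 8.37, 7.99 and 8.8 in CGG cells with overexpression, against 8.82, 8.55 and 8.74 in CGG cells, which overlapped. It read 8.31, 8.5 and 8.58 with overexpression alone, against 9.76, 9.3 and 9.84 in controls, all lower by a difference of -1.17 ± 0.22. ITGB8 differed from control by -0.83 ± 0.22 with knockdown alone (adjusted p = 0.0686) and by -0.93 ± 0.22 in CGG cells (adjusted p = 0.06).

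Among 13 tested ligands of ITGB3 integrins, 1 rose and 2 fell with knockdown alone, and 1 rose and 1 fell in CGG cells, where 0.504% of all tested clusters were called higher and 0.165% lower. SPP1 (osteopontin) read 8.14, 7.59 and 7.85 with knockdown alone and 7.03, 7.39 and 7.84 in CGG cells, against 4.87, 4.9 and 5.19 in controls. It rose by 2.87 ± 0.22 (adjusted p = 3.84e-07) and by 2.43 ± 0.22 (adjusted p = 5.69e-06). SPP1 read 6.23, 6.68 and 6.44 with overexpression alone, between those groups and the controls. THBS1 (thrombospondin 1) fell by 0.90 ± 0.18 with knockdown alone (adjusted p = 0.0135) and by 1.15 ± 0.18 in CGG cells (adjusted p = 0.00297). The first THBS1 call was lost without control array 3 (adjusted p = 0.0523) or knockdown array 3 (0.0672). CCN2, a matrix-associated growth regulator, fell by 1.09 ± 0.18 with knockdown alone (adjusted p = 0.00343) and averaged -1.31 ± 0.18 relative to control with overexpression alone.

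Of 12 tested cytoplasmic adhesion proteins, 1 rose with knockdown alone, the integrin-linked kinase ILK, at +0.81 ± 0.20 (adjusted p = 0.0436), and this call was lost in 12 of 16 alternative settings. Of 5 other L6 family genes, 1 fell with knockdown alone, TM4SF4, by 1.03 ± 0.22 (adjusted p = 0.019). The TM4SF4 call was lost without control array 2 (adjusted p = 0.0847), knockdown array 2 (0.05003) or knockdown array 3 (0.0988).

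Other enzymes of the same classes did not pass in the 4 pairwise tests, namely 5 tested transglutaminases, 5 amine-degrading enzymes and 16 polyamine genes. Of the polyamine genes, antizyme OAZ1 differed by +0.53 ± 0.18 with knockdown alone (adjusted p = 0.176) and by +0.34 ± 0.18 in CGG cells (adjusted p = 0.446). MAOB, the sister enzyme of MAOA, was chosen after its values were seen. It read 5.03, 4.94 and 5.33 with TRA2A overexpression alone, against 4.51, 3.84 and 3.92 in controls, low values that were opposite in direction to MAOA in that comparison. In CGG cells with overexpression MAOB averaged 4.38, against 4.57 in CGG cells, the same direction as MAOA. Its difference from control was also positive, like that of MAOA, with knockdown alone (+0.56 ± 0.20, adjusted p = 0.207) and in CGG cells (+0.48 ± 0.20, adjusted p = 0.323). No other pregnancy-specific glycoprotein of 8 tested passed either. Their median difference was -0.34 with knockdown alone, -0.25 in CGG cells against controls and -0.31 with overexpression alone, beside 0.01, -0.01 and 0.01 over all tested clusters. PSG11 differed by +0.08 ± 0.29 with knockdown alone (adjusted p = 0.949) and PSG2 by +0.77 ± 0.21 (adjusted p = 0.0809). PSG6, chosen after its values were seen, averaged 4.91 with overexpression alone, against 5.90 in controls, and differed by -0.63 ± 0.19 with knockdown alone (adjusted p = 0.128). PSG1, PSG3, PSG7, PSG8 and PSG11 also averaged lower than control with overexpression alone, at -0.67 to -0.19, and PSG4 and PSG2 averaged higher, at +0.06 and +0.56. Genes of this family are near-identical in sequence, so their probes may share signal, and RefSeq's green monkey table (assembly mChlSab1.0.hap1) named 6 of the 7 genes but held 0 numbered PSG symbols.

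A few markers of the fibroblast and epithelial lists moved with the same groups. With knockdown alone and in CGG cells, the list medians were +0.10 and -0.11 for 9 fibroblast markers. For 9 kidney and epithelial markers they were +0.13 and -0.02. Of all tested clusters, 1.13% were called higher and 0.42% lower with knockdown alone, and 0.504% and 0.165% in CGG cells. Claudin 4 (CLDN4), of epithelial tight junctions, rose by 2.55 ± 0.28 with knockdown alone (adjusted p = 5.49e-05) and by 2.16 ± 0.28 in CGG cells (adjusted p = 0.000471). S100A4, a calcium-binding protein of fibroblasts, rose by 1.30 ± 0.22 (adjusted p = 0.00341) and by 1.10 ± 0.22 (adjusted p = 0.0215) in the same comparisons. PAX8, a kidney transcription factor, fell by 1.09 ± 0.22 with knockdown alone (adjusted p = 0.0153). The S100A4 call in CGG cells ended when CGG array 2 (adjusted p = 0.103) or 3 (0.0996) was left out, and when control array 1 (0.0837) or 2 (0.0697) was. The PAX8 call was lost without control array 2 (0.0587) or 3 (0.0581) or knockdown array 1 (0.0582) or 3 (0.0582). No other gene of the 9 fibroblast and 9 epithelial markers tested passed in those comparisons, nor did any of 8 endothelial, 6 platelet, 8 trophoblast or 6 leukocyte markers. The part of these cell types in the 7 genes' values was not tested.

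The 7 genes did not share 1 profile. Likeness was measured as the root-mean-square (RMS) difference of the 6 group means, each gene centred on its own mean. The closest pairs were TMEM154 and SAT1 (0.20), TM4SF1 and PSG5 (0.22), and ITGB3 and TGM2 (0.22), and the most distant was TM4SF1 and TMEM154 (1.06). Among 19611 other named genes, ITGB3 was nearest to CRYAB (0.12) and SERPINA1 (0.31). The same genes were nearest to TGM2, in the order SERPINA1 (0.20) and CRYAB (0.23). CRYAB averaged 6.41 in CGG cells with overexpression and 6.08 with overexpression alone, against 7.74 in CGG cells and 8.04 in controls.

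TM4SF1 was nearest to RNF145 (0.12) and SYNE2 (0.19), and PSG5 to IGFBP7 (0.14) and DRP2 (0.17). TMEM154 was nearest to THRSP (0.12) and ACSS2 (0.20), MAOA to ABCC3 (0.19) and KLF2 (0.21), and SAT1 to ACAT2 (0.08) and SEMA3F (0.13). ACAT2 averaged 8.60 in CGG cells with overexpression and 8.57 with overexpression alone, against 9.62 in CGG cells and 8.07 in controls. The average of the 7 profiles was nearest to RIN2, TRIB1, FBN1, SMAD3, GPR37, LRBA, CAMK2N1 and TGFBI (0.11 to 0.18). RIN2 averaged 9.45 and 9.27 with overexpression in CGG cells and alone, against 10.27 in CGG cells and 10.36 in controls. With 6 group means per profile, likeness of this kind describes these arrays only.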

How the data were processed

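The authors deposited log2 values per transcript cluster for 18 arrays and a second log2 table per exon region and junction. The submitters' processing notes name RMA and the Transcriptome Analysis Console, with no version. Probes were designed on human transcripts and the RNA is from green monkey cells, which can lower a probe's signal in all groups alike. Raw intensities were not used here. Precision is set by the 3 arrays per group.

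Groups were read from titles and condition labels. In R 4.3.3 with limma 3.58.1, 1 model of 6 group means was fitted over 18 arrays (lmFit, eBayes, no covariate) on 67854 transcript clusters with a mean above the median, 4.14. A call was a two-sided adjusted p under 0.05 (Benjamini-Hochberg over all tested clusters). At exon level a feature's value minus its gene's value was tested in the same model over 230888 features with a mean above 7.46, in genes with at least 3 features. Lists and members were chosen with earlier results of these data known. Named genes were the 7 members, TRA2A, list genes called in any of 4 pairwise tests or the 2 brightest of a list, the nearest profiles, and per member the extreme and called features. The gene-level fit was tested on simulated transcript clusters with known changes in the knockdown group. The exon-level and interaction tests were not checked in this way. Alternatives changed the filter, normalization, variance, block, rehybridised arrays, threshold and single arrays.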

Additional observations from a re-analysis of the deposited data

Results flagged for a closer look

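The knockdown effect in CGG cells differed from the knockdown effect without CGG by limma's interaction test for 3 of the 7 genes. It was higher for 1, against 0.0457% of tested clusters, and lower for 2, against 0.13%. For TM4SF1 the difference of effects was +1.61 (adjusted p = 0.00361), from +0.31 in CGG cells and -1.29 without CGG. For TMEM154 it was -1.82 (adjusted p = 0.0138), from -0.22 in CGG cells and +1.60 without CGG. For SAT1 it was -1.54 (adjusted p = 0.0232), from -0.35 in CGG cells and +1.19 without CGG. The osteopontin gene SPP1 differed likewise, by -2.14 (adjusted p = 0.00389), and claudin 4 (CLDN4) by -2.24 (adjusted p = 0.0232). The CLDN4 call was lost without control array 1 (0.0627), CGG array 3 (0.0788), knockdown array 1 (0.0834) or array 2 of CGG cells with knockdown (0.0764). It was also lost with rehybridisation as a covariate (0.0648), without both rehybridised arrays (0.0821) and with the variance from the compared arrays alone (0.0882), whereas the SPP1 call held in all 22 alternatives. Of the 7 genes, the SAT1 call was lost in 8 alternatives and the TMEM154 call in 2, both of which concern the rehybridised arrays. The TM4SF1 call was lost in 0. All 5 interaction values use the control arrays, which stood apart from the other 15. In groups of 3 no single array was tested as an outlier.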

How the results depend on the processing

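No called value changed sign in any alternative. Over single tests of the 7 genes, 26 calls were lost and 6 gained; the arrays that end a call when left out are named with each gene. Estimating the variance from the compared arrays alone left 2 of 5 calls for knockdown against control and 2 of 4 for CGG against control. Leaving out both rehybridised arrays, an alternative added after the data were seen, left 3 of 5 for knockdown and 1 of 3 for the interaction, and rehybridisation as a covariate also left 1 of 3. Leaving out 1 array gave 3 to 5 calls for knockdown, 3 to 5 for CGG and 2 to 3 for the interaction, and 0 for both comparisons of CGG cells with knockdown.

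Exon-level member calls numbered 6, with 10 at a 25th-percentile filter, 3 when the median of a gene's features replaced the gene value, and 2 to 6 leaving out 1 array (2 without control array 1 or CGG array 2, 3 without control array 2, CGG array 3 or knockdown array 2).

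Same-numbered arrays had deviation correlations of -0.12 to 0.16, with 3 of 45 above 0.1, and differently numbered arrays -0.17 to 0.17. No pairing by number was thus seen over all tested clusters. With 3 arrays per group this cannot show that pairing is absent, and pairing in single genes was not tested. A replicate block gave 5 calls for knockdown, 5 for CGG (MAOA added), 3 for the interaction and 5 exon-level calls.

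Over all tested clusters, knockdown called 1049 (135 to 1669 over alternatives), CGG 454 (55 to 810), CGG with knockdown against CGG 100 (13 to 279) and against knockdown 0 (0 to 136), and the interaction 119 (35 to 2127).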
